A study of Homo sapiens with 6 samples.

Results

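This set holds 129 protein-coding genes that were lower after MALAT1 siRNA than in the control in each of 3 human lung cancer cell lines. They were chosen by these same libraries: read counts were scaled, and a gene entered when it was at least 1.5-fold lower in every line, was counted in all 6 libraries and had a mean of at least 100 raw reads. Of 11882 protein-coding genes past the count filters, 138 (1.16%) met the rule, and 9 of those (PGAM1, PGAM4, NOL6, EPHA2, TBL1XR1, UGDH, BCAT1, ERLIN2 and COMMD2) are not described here. The study profiled RNA from 6 libraries: each line had 1 control library, whose treatment is given as none, and 1 si-MALAT1 library from cells transfected with an siRNA against MALAT1. No line had a second library of either kind, so the spread between cultures was not measured, and fewer cells of a type and less RNA per cell cannot be told apart in bulk RNA. The lines are established non-small cell lung cancer (NSCLC) lines: H460 came from a large cell carcinoma, H1299 from a lymph node metastasis, and A549 from an adenocarcinoma. All 3 si-MALAT1 libraries come from transfected cells. The methods list negative controls and cells given a control siRNA, without naming which was sequenced. Transfection and loss of MALAT1 therefore cannot be told apart.

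MALAT1 is a long noncoding RNA that stays in the nucleus, where it gathers at speckles rich in splicing factors, and it is among the most abundant noncoding transcripts of lung cancer cells. An siRNA is a short duplex whose guide strand is loaded into an Argonaute protein and leads it to RNA with matching bases. Besides cutting a fully matched target, a guide can lower other mRNAs whose 3' untranslated region (3' UTR, the part after the stop codon) matches only its seed, the bases near the 5' end of the guide, in the way a microRNA does. The sequence of the siRNA used is not given in the sources used here.

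MALAT1 itself, at chr11:65497738-65506516 (hg38), was counted at 231045 and 43858 reads in the H460 control and si-MALAT1 libraries, at 407551 and 47935 in H1299 and at 93747 and 14447 in A549. After scaling, 20.1%, 12.9% and 13.9% of the control level was left. The libraries held between 42506818 and 68515992 counted reads, the A549 pair being the shallowest. Scaled reads are raw reads divided by the size factor of the library, and log2 changes are of si-MALAT1 over control in scaled reads plus 1, given in the order H460, H1299 and A549. KRT8 and KRT18, keratins of simple epithelia, were between 122.5 and 2918 TPM (a level per length of transcript, scaled to a fixed sum in each library) in every library and their log2 changes in A549 were -1.16 and -1.23. Other epithelial markers were not high in every line. In the H460, H1299 and A549 controls EPCAM was at 0.33, 0.25 and 3.61 TPM and CDH1 at 0.045, 0.0071 and 27.8. KRT19 was at 550, 0.26 and 0.89 TPM in these controls, and the mesenchymal marker VIM at 842, 1844 and 446. NKX2-1 and SFTPB, which define lung epithelium, were at 0 reads in H460 and A549, and in H1299 NKX2-1 had 28 and 30 reads and SFTPB 0. Among 7 defining markers of other cell types, PTPRC and CD3E of leukocytes had 0 reads throughout, and the 7 summed to between 11.5 and 48.0 TPM. Most of this was CD68, which was not low, at 36.2 and 47.3 TPM in the H1299 control and si-MALAT1 libraries. The other markers were at most 2.03 TPM. CDKN2A, deleted in H460 and A549, had 0 reads there.

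The members shared short sequences that the rule did not use, although the words searched for were known from earlier results of these libraries. For each gene the transcript with the longest coding sequence was read from the deposited annotation and the hg38 genome, and all 16384 words of 7 letters were ranked by how much more often a member's 3' UTR held them than the 3' UTR of any of 11861 genes. The first 2 words were TGAATCA, in 74 members (57.4%) and 12.9% of all genes, and ATGAATC, in 58 members (45.0%) and 9.53% of all genes. They overlap by the 6 letters TGAATC, and 1 or both stood in the 3' UTR of 85 of 129 members (65.9%, 95% Wilson interval 57.4% to 73.5%) against 17.5% of all genes. Both words lead a ranking made in these same members, so a high share follows in part from that choice. The interval does not cover the choice, and the share is a description. Sites of members with a strong reduction, or with several sites, are printed to show how little beyond the word they share, each as 30 bases of the transcript 5' to 3', with the matching word in capitals and, first, the single site in the 8779 bases of MALAT1.
MALAT1: ggcttatactcATGAATCttgtctgaagct
PPP1CA: ttctttttttaATGAATCAatagcagcgtc
CIAO2B: ccgttgttttctTGAATCActcacaatgag
GOLM2 (last of 3): agggtagggagATGAATCAaaaaatacccc
TALDO1: cgtggcttctgATGAATCttgcgtttttta
APLN: gagctcacaaaATGAATCcctatgcttaat
TOR1B (first of 2): atatcatagagtTGAATCAcaatgagaccg
GPN1: agacatgattaATGAATCAgaatcctgttt
POLR2H: gagagctgaaaATGAATCAgaagctttatg
RRAS2: ttttaatagagATGAATCAgttttggaatc
EXOSC5: ttatggaatggATGAATCAataaattaatt
VCL (first of 2): tgctgctgaagATGAATCAatgggaaatac
PDE12 (first of 4): gaaaatttaatATGAATCAaagcttatatg

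In hg38 the MALAT1 site lies at chr11:65500926-65500955, plus strand, inside the noncoding exon, 3200 bases from the start of the transcript. A word is common in long sequences: 48.4% of 1560 genes outside the set with a 3' UTR above 4000 bases held one. Whether the siRNA was directed at the MALAT1 site is not known. The sites of PPP1CA (chr11:67398371-67398400, minus strand), CIAO2B (chr16:66932108-66932137, minus strand) and TALDO1 (chr11:764904-764933, plus strand) stand in 3' UTRs of only 352, 138 and 167 bases. Those of GPN1 (chr2:27650782-27650811, plus strand), POLR2H (chr3:184368474-184368503, plus strand), RRAS2 (chr11:14279033-14279062, minus strand) and EXOSC5 (chr19:41386382-41386411, minus strand) carry the 8 letters ATGAATCA, which hold both words. The others are at chr15:44415310-44415339, plus strand (GOLM2), chrX:129645622-129645651, minus strand (APLN), chr9:129810540-129810569, plus strand (TOR1B), chr10:74119374-74119403, plus strand (VCL) and chr3:57560055-57560084, plus strand (PDE12), all in 3' UTRs. Outside the word the flanks differ: over 19 bases that end 1 base after the shared 6 letters, a member's site matched that of MALAT1 at a median of 9.5 positions, the 6 letters included, and at 14 at most, against a median of 9 for sites of other genes.

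ATGAATCA was in the 3' UTR of 35 members (27.1%) and of 3.68% of all genes, and the shared 6 letters in 98 members (76.0%) and 30.2% of all genes. Read on the same strand, the reverse complement words TGATTCA and GATTCAT were in 19.4% of members and 18.1% of all genes. In the coding sequence a word was found in 39 members (30.2%) against 16.6% of all genes, and in the 5' UTR in 3 members (2.33%) against 1.28%. Of 96 members with a RefSeq promoter (hg38, the bases around the start), 2 (2.08%) held a word on either strand, the same share as all 9827 genes matched (2.08%). None of 2351 distinct mature human miRNAs of the RefSeq table had GAUUCA, the complement of the shared letters, at bases 2 to 7. Whether the siRNA guide carries that complement was not tested, since its sequence is not given. MicroRNAs were compared at these bases only, and no cause of the shared words was tested.

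The higher share in members was present in every class of 3' UTR length. Since the words were chosen in these same members, the shares by length are a description too. Members' 3' UTRs had a median of 1826 bases against 1320 over all genes. Among genes with at most 500 bases of 3' UTR, 12 of 20 members (60.0%) and 54 of 2896 other genes (1.86%) held a word. Between 500 and 1000 bases the shares were 41.2% of 17 members and 5.85% of 2050 others, and between 1000 and 2000 bases 51.6% of 31 and 14.7% of 2629. Above 2000 bases, up to 4000, 77.3% of 44 members and 25.8% of 2597 others held one, and above 4000 bases 16 of 17 members (94.1%) and 48.4% of 1560. Members' sites also lay nearer to the stop codon, at a median of 1048 bases after it for 137 sites, against 1539.5 bases for 2550 sites of other genes. Part of this goes with length, since among genes with a word the median 3' UTR was 2482 bases in members and 3233.5 in others. Relative to the length of the 3' UTR, the median site stood 41.9% of the way along in members and 49.9% in others.

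**Figure D1:**
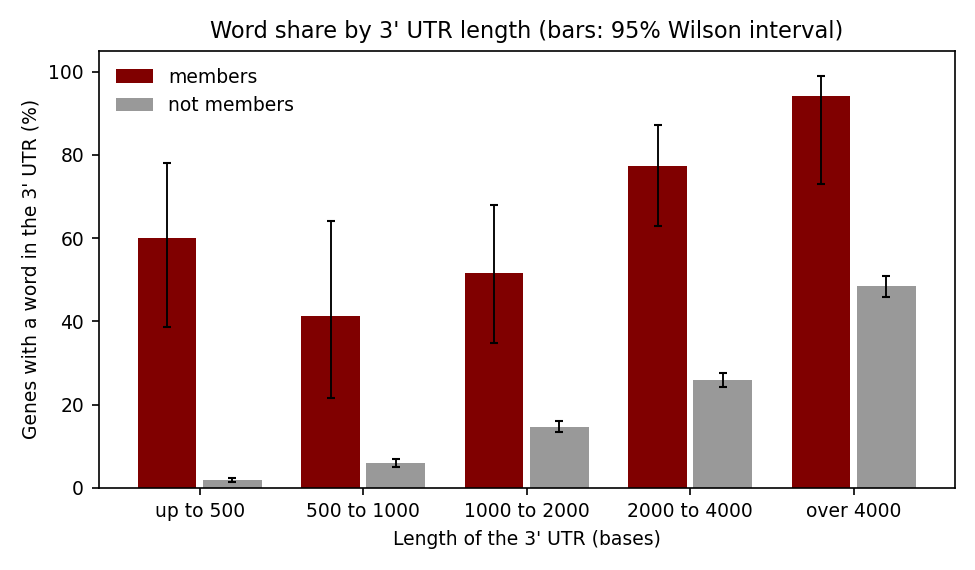
Share of genes (vertical axis, percent) with at least 1 word in the 3' UTR, for members and for all other genes past the filters, by length of the 3' UTR in bases (horizontal axis). Error bars are 95% Wilson intervals, which do not cover the choice of the words in these members. The member share is above the other share in all 5 length classes, from 60.0% against 1.86% in the shortest to 94.1% against 48.4% in the longest.

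More sites went with a larger share of members. Of 9790 genes without a site, 44 (0.449%) were members, of 1617 with 1 site 51 (3.15%), of 341 with 2 sites 20 (5.87%), and of 113 with 3 or more sites 14 (12.4%). Genes with exactly 1 site were members in 7.69% of cases where it held ATGAATCA, in 2.49% where it was TGAATCA alone and in 1.79% where it was ATGAATC alone. Among the genes that are not members, the median log2 change in H460 was 0.05 without a site, -0.08 with 1, -0.11 with 2 and -0.26 with 3 or more. In A549 these medians were 0.03, -0.11, -0.19 and -0.20, and in H1299 they were 0.05, -0.01, -0.08 and 0.01, so the last class in H1299 did not follow the order. The si-MALAT1 libraries are those that chose the members, so these values are a description.

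**Figure D2:**
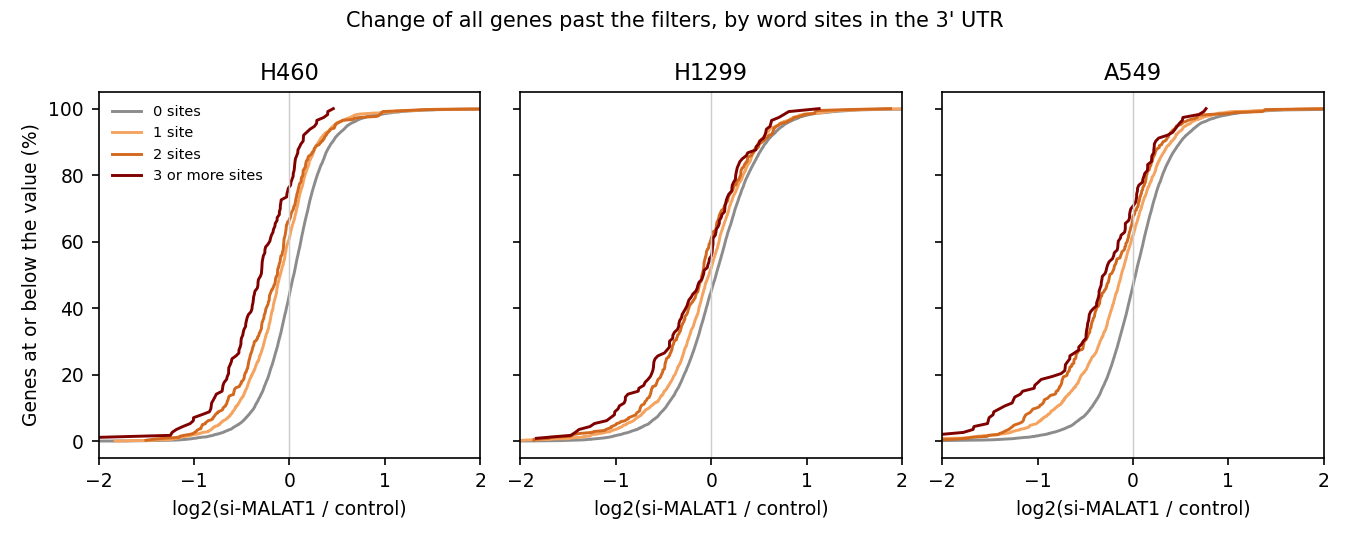
Cumulative share of the 11861 genes with a 3' UTR (vertical axis, percent) at or below a log2 ratio of si-MALAT1 over control (horizontal axis), members included, in 1 panel per cell line, with 1 curve for genes with 0, 1, 2 and 3 or more word sites, and values beyond the ends of the axis are not drawn. In H460 and A549 the curves shift to lower values as the number of sites grows, with medians of -0.29 in both for 3 or more sites, and in H1299 the shift is smaller, with a median of -0.08.

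The reduction differed in size between the lines. Over the 129 members the median log2 change was -0.80 in H460, where it ranged from -1.64 to -0.59. The H1299 median was -0.94, with a range from -2.20 to -0.59, and that of A549 was -1.15, with a range from -3.51 to -0.60. Over all 11882 genes the medians were 0.02, 0.04 and 0.01. The upper end of each range is set by the rule, and 5.35%, 8.0% and 8.27% of all genes were at least 1.5-fold lower in H460, H1299 and A549. A549 had the strongest reduction of the 3 lines for 82 members, H1299 for 31 and H460 for 16, and H460 had the weakest for 79. In H460 34 members were at least 2-fold lower, in H1299 53 were and in A549 83, while 16 met this in all of them. Over all genes, neither the share at 2-fold in each line nor the line of strongest or weakest reduction was counted. Every member was already at least 1.5-fold lower. The counts given only describe the members. Together the members made up 0.366%, 0.265% and 0.345% of TPM in the H460, H1299 and A549 controls and 0.178%, 0.138% and 0.135% after siRNA. The size of a member's reduction in 1 line went loosely with that in another: over the 129 members Pearson's r was 0.32 for the pair H460 and H1299, 0.48 for A549 with H460 and 0.51 for A549 with H1299, each over genes that share libraries and were selected to be low in both lines. For 59 members, and for 2.45% of all genes, the highest si-MALAT1 level lay under the lowest control level over all lines, which follows in part from the rule.

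**Figure D3:**
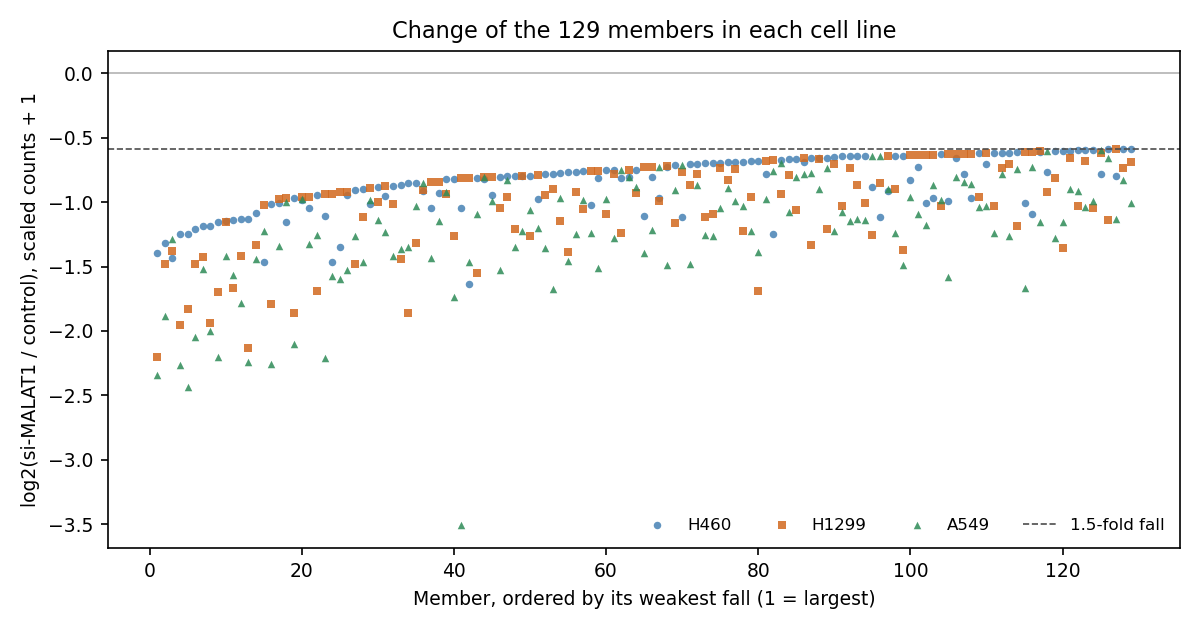
Log2 ratio of si-MALAT1 over control (vertical axis, scaled counts plus 1) for each of the 129 members (horizontal axis, ordered by the line with the weakest reduction), with 1 symbol per cell line and a dashed line at the 1.5-fold reduction that the rule asks for. All points lie below the dashed line, H460 is most often the uppermost symbol, and the lowest point is ANKRD1 in A549 at -3.51.

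The members are described by roles assigned after they were seen, and since all measured genes were not sorted in this way, the size of a group says nothing about its share. PPP1CA, a catalytic subunit of protein phosphatase 1 (chr11:67398183-67401858), was at 5622, 8256 and 10148 scaled reads in the controls and at 2134, 1795 and 2003 after siRNA. All 3 si-MALAT1 values were far below all 3 control values, and 38.0%, 21.8% and 19.7% of the control level was left in H460, H1299 and A549. The log2 changes were -1.40, -2.20 and -2.34, with 95% intervals from the exact binomial split of reads of -1.47 to -1.33, -2.27 to -2.13 and -2.42 to -2.26, which cover counting error only. Its 3' UTR of 352 bases holds 1 ATGAATCA. The other catalytic subunits, PPP1CB and PPP1CC, had no 3' UTR word and log2 changes of -0.01, 0.26 and -0.06 and of 0.08, -0.12 and 0.26, and none of 58 other genes whose symbols start with PPP was a member. Only 1.09% of all genes past the filters were members, so a count of 0 among so few genes is near that share. The same holds for the POLR, EXOSC, TNFRSF and TRIM genes below.

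CIAO2B, a part of the cytosolic complex that inserts iron-sulfur clusters (chr16:66932065-66934402), was at 3717, 1610.1 and 2804 scaled reads in the controls and at 1562, 415 and 582 after siRNA. Its highest treated value, in H460, was just under its lowest control value, in H1299. TALDO1, the transaldolase of the pentose phosphate pathway (chr11:747464-765012) and the most abundant member at a mean of 137 TPM, was at 15691, 4154 and 16921 scaled reads in the controls and at 6782, 1491 and 4089 after siRNA. Each treated value was below its own control, but the treated H460 value was above the H1299 control, and 43.2%, 35.9% and 24.2% of control was left. Its neighbours in the pathway, TKT, PGD, RPE and RPIA, were not members and had log2 changes between -0.36 and 0.33. HSD17B6, an oxidoreductase of steroids, had a mean of only 129 reads, and its log2 changes were -1.32, -1.48 and -1.88. Only its reads in H1299, 359 and 117, brought that mean past the count filter. HK2, the inducible hexokinase of glycolysis, had log2 changes of -0.91, -0.90 and -0.85 and no word, while HK1 was within 0.24 of 0 in every line. The A549 value of HK2 rests on only 61 and 37 raw reads, with an interval of -1.50 to -0.25. In all, 12 members were metabolic enzymes or iron proteins, CTPS1 (CTP synthase), SUCLG2 (succinyl-CoA ligase), MGLL (monoacylglycerol lipase) and IREB2 (an iron-responsive RNA-binding protein) among them, and 6 of the 12 held a word.

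GOLM2, a Golgi membrane protein (chr15:44288709-44415758), was at 9324, 6264 and 6907 scaled reads in the controls and at 3926, 1759 and 1279 after siRNA. Its treated A549 value was the lowest of the 6 and its 3' UTR holds 3 sites, and its relative GOLM1 had log2 changes of -0.03, -0.01 and 0.10. TOR1B, a torsin ATPase of the endoplasmic reticulum and nuclear envelope, was at 2573, 2841 and 2042 scaled reads in the controls and at 1154, 875 and 443 after siRNA, with no overlap between treated and control values and 2 sites. MAN2A1, the Golgi alpha-mannosidase II of N-glycan processing, was at 20507, 5554 and 7240.3 scaled reads in the controls and at 8037, 2931 and 2395 after siRNA, and its log2 change in H1299 was the weakest at -0.92. GANAB, the catalytic subunit of glucosidase II, had more even log2 changes of -0.70, -0.78 and -0.87. The 14 members of glycosylation and the secretory pathway also include MGAT4A (branching of N-glycans), CHSY1 (chondroitin synthesis), ST3GAL3 (sialylation), PIGS (attachment of lipid anchors) and the cargo receptors TMED8 and TMED9, and 9 of the 14 held a word. Their median log2 changes were -0.84, -0.87 and -1.23.

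Signalling was assigned to 21 members, 11 of them with a word. RRAS2, a small GTPase of the RAS family (chr11:14277920-14364506), was at 1852, 1112 and 1976 scaled reads in the controls and at 843, 416 and 574 after siRNA, without overlap, while RRAS and MRAS were not members and had log2 changes from -0.46 to 0.30. Both genes for the transcription factor STAT5 were members. STAT5B, with 2 sites, was at 3795, 1044 and 4735 scaled reads in the controls and at 2062, 522 and 2144 after siRNA, and its treated A549 and H460 values were above the H1299 control. STAT5A, with no word in the 3' UTR, had log2 changes of -0.81, -1.55 and -1.09, on only 44 and 13 reads in H1299. It had 505 and 271 raw reads in H460 and at most 99 in a library of another line. STAT5A thus met the count filter only through H460. STAT5A and STAT5B lie head to head on opposite strands of chromosome 17 and overlap, and whether counting used the strand is not stated. Of the protein kinase C genes, PRKCA (log2 changes of -0.94, -0.92 and -1.53) and PRKCI (-0.64, -0.90 and -1.24) were members, and PRKCD, PRKCE, PRKCZ and PRKCH were not, with log2 changes from -0.64 to 0.46. PRKCI holds 3 sites and PRKCA none. PTPN11, the phosphatase SHP2 that acts below growth factor receptors, had log2 changes of -0.80, -1.05 and -1.53 and 2 sites. RPS6KB1, the S6 kinase, had log2 changes of -0.70, -1.10 and -1.27 and 3 sites. PDE3B, a phosphodiesterase that breaks down cyclic AMP, carried 4 sites and had log2 changes of -0.68, -1.23 and -1.03. CDC25B, a phosphatase that activates cyclin-dependent kinases, had nearly the same log2 change in every line, -0.82, -0.81 and -0.81.

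Among genes of transcription, chromatin, RNA, nuclear import and translation, 15 of 19 members held a word. POLR2H, a subunit shared by the nuclear RNA polymerases (chr3:184361710-184368595), was at 2556, 3107 and 2226 scaled reads in the controls and at 1162, 980.5 and 750.2 after siRNA. The treated values were all below the controls, and none of 32 other genes whose symbols start with POLR was a member, with median log2 changes between -0.12 and 0.0039. GPN1, a GTPase needed to bring RNA polymerase II into the nucleus, was at 2127, 2501 and 2961 scaled reads in the controls and at 961, 1121 and 1109.8 after siRNA, again without overlap. EXOSC5, a core subunit of the RNA exosome, was at 605, 959.5 and 1699.5 scaled reads in the controls and at 309, 264 and 395 after siRNA, while the 9 other EXOSC genes, none of them a member, had medians of 0.07, -0.42 and -0.15. BZW1, a regulator of translation start and the member with the most reads, was at 52648 against 26766 scaled reads in H460, 22621 against 13055 in H1299 and 24421 against 10637 in A549 (control against si-MALAT1). RBMS3, an RNA-binding protein with 4 sites, had log2 changes of -0.61, -0.61 and -1.16. WARS1, the cytosolic tryptophanyl-tRNA synthetase, had log2 changes of -0.97, -0.63 and -0.87 and no 3' UTR word, and PBRM1, a subunit of the PBAF chromatin remodeller, had log2 changes of -0.66, -0.63 and -0.81. PDE12, which removes poly(A) tails in mitochondria, carried 4 sites, 3 of them ATGAATCA, and was at 1617, 2711 and 1677 scaled reads in the controls and at 950.0, 1038 and 609.6 after siRNA.

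**Figure D4:**
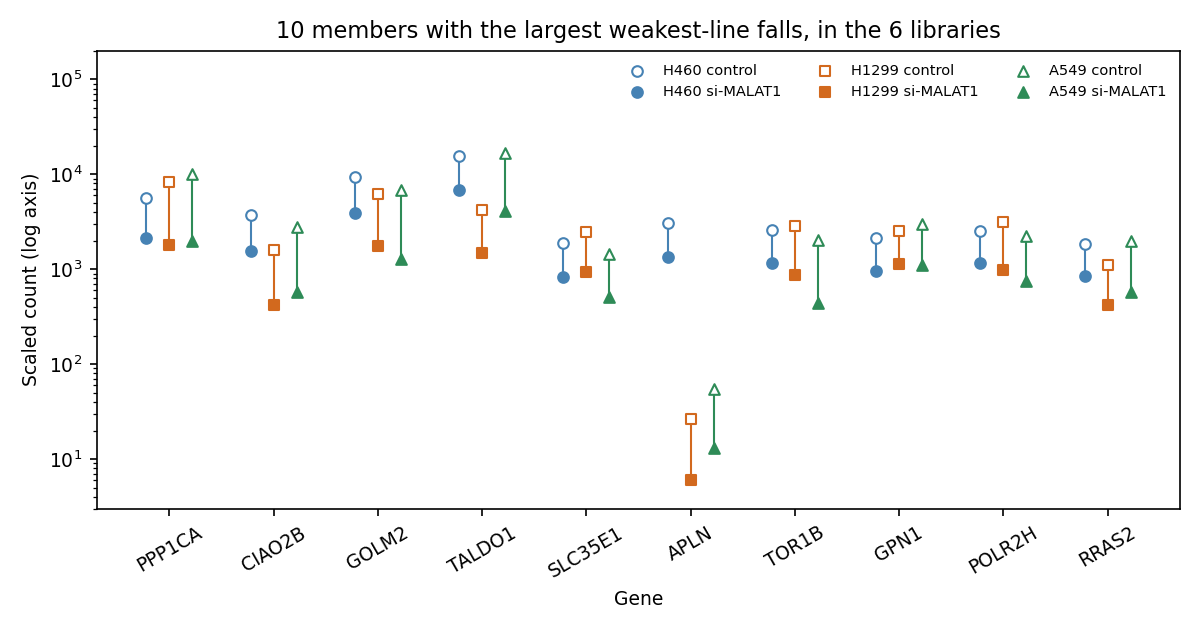
Scaled read counts (vertical axis, log scale) of the 10 members with the largest reduction in their weakest line among those with a mean of at least 500 reads, with open symbols for control and filled symbols for si-MALAT1 libraries, joined within each cell line. Every filled symbol lies below its open partner, and APLN is the gene whose H460 level stands far above the other lines, 3034 scaled reads in the control against 26.1 and 55.3.

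Of the 17 transporters and lipid transfer or lysosomal proteins, 9 held a word. SLC35E1, a nucleotide sugar transporter homologue with 3 sites, was at 1868, 2485 and 1449 scaled reads in the controls and at 821, 925 and 506 after siRNA. The zinc importers SLC39A10 and SLC39A14 had log2 changes of -0.82, -1.26 and -1.74 and, for the latter, -0.69, -0.74 and -0.99. The organic anion carrier SLCO4A1 had log2 changes of -1.46, -0.93 and -1.58, and the haem carrier SLC48A1 had log2 changes of -0.65, -0.67 and -0.90. These 5 were the members among 214 genes whose symbols start with SLC (2.34%, against 1.09% of all genes). CREG1, a lysosomal glycoprotein with no word, was at 21792 against 12056 scaled reads in H460, 384 against 154 in H1299 and 4764 against 2335 in A549 (control against si-MALAT1).

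At the cell surface, TNFRSF12A, the receptor of the cytokine TWEAK, was at 3079.8, 2944 and 4144 scaled reads in the controls and at 1431, 1538 and 894 after siRNA. The H460 and H1299 values were close to each other in both states, and the log2 change of -2.21 in A549 was the strongest, while none of 11 other TNFRSF genes was a member. PRNP, the prion protein, was at 15692 against 8104 scaled reads in H460, 14842 against 8079.6 in H1299 and 14499 against 6182 in A549 (control against si-MALAT1), and ADGRG6, an adhesion G protein-coupled receptor with 3 sites, had log2 changes of -1.01, -0.61 and -1.67. APLN, the secreted ligand of the apelin receptor, had log2 changes of -1.18, -1.94 and -2.00, but in H1299 and A549 this rests on 33 and 7 and on 42 and 11 raw reads, with intervals of -3.53 to -0.91 and -3.18 to -1.09.

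CCN1 and CCN2, secreted matricellular proteins, and ANKRD1, a nuclear ankyrin repeat protein, were members. None of these 3 held a word in any 3' UTR, the coding sequence or the 5' UTR. CCN1 was at 1544, 1852 and 1027 scaled reads in the controls and at 559.6, 911 and 439 after siRNA, so each treated value was below all controls. CCN2 was at 11568 against 5832 scaled reads in H460, 684 against 442 in H1299 and 1094 against 366 in A549 (control against si-MALAT1), and the treated H460 level stayed above the other 2 controls. ANKRD1 had the widest spread between lines of all members, with log2 changes of -1.04, -0.81 and -3.51 (SD 1.49 over 3 lines). It had 749 and 72 raw reads in the A549 control and si-MALAT1 libraries, while in H1299 it had 26 and 13, with an interval of -1.95 to 0.14 that reaches above 0. DDAH1, which breaks down methylarginines, is also a member and lies 2487 bases from CCN1 on chromosome 1. VCL, the focal adhesion protein vinculin, was at 15006, 23059 and 11319 scaled reads in the controls and at 7272, 11869 and 4512 after siRNA, with log2 changes of -1.05, -0.96 and -1.33 and 2 sites. EPB41, of the spectrin skeleton, had log2 changes of -0.81, -1.24 and -0.75, and PLS1, which bundles actin, had log2 changes of -1.02, -0.89 and -0.98.

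All 7 genes for ubiquitin enzymes, peptidases and chaperones held a word. TRIM44, a tripartite motif protein that stabilises other proteins, has the longest 3' UTR of the set, 11622 bases with 3 sites, and was at 3635, 3732 and 3152 scaled reads in the controls and at 2363, 1914 and 1537 after siRNA. Its treated levels were below all controls, and none of 40 other TRIM genes was a member. USP18, which removes the ubiquitin-like ISG15, had log2 changes of -0.94, -1.69 and -1.26, and ATE1, which adds arginine to protein ends, had log2 changes of -0.70, -0.87 and -1.48. Of 4 mitochondrial genes, MAIP1, which guides assembly of the calcium uniporter, was at 916, 793 and 1343 scaled reads in the controls and at 419, 180.5 and 283 after siRNA, with no word found. TIMM21, of the inner membrane import machinery, had log2 changes of -0.68, -1.69 and -1.39. The 3 DNA replication genes, RFC5 (clamp loader), POLA2 (primase complex) and MMS22L (repair of stalled forks), had log2 changes from -1.35 to -0.60.

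The remaining 14 genes have no role assigned here, and 12 of them held a word. TMEM64 was at 2202, 3394 and 4459 scaled reads in the controls and at 1089, 978 and 935 after siRNA, and CCDC6, with 4 sites, had log2 changes of -1.01, -0.98 and -1.34. Several members have near-identical copies, so their reads could be split or shared: FAM72B, FAM72C and FAM72D had log2 changes from -1.33 to -0.63, CCZ1 and CCZ1B from -1.21 to -0.65, and AGAP6, FAM86B1, TMEM183B and TVP23B are uncertain for the same reason. KIAA0754 lies within MACF1 on the same strand and its reads may belong to that gene. In all, 25 members overlap another measured protein-coding gene, 23 of them on the opposite strand, PPP1CA, GPN1, MAIP1 and VCL among these. By the start of their symbols, 26 members fell into 16 of 49 gene families, 1.11% of the 2349 genes there, close to the 1.09% of all genes that were members.

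The 44 members without a 3' UTR word had log2 changes of much the same size. Their median log2 changes were -0.78, -0.93 and -1.05 in H460, H1299 and A549, against -0.82, -0.96 and -1.20 for the 85 with a word, though both were selected by the same threshold. A level at least 2-fold lower in every line was seen in 13 of the 85 and 3 of the 44, the latter being MAIP1, RASSF3 and CCN1. Of the 44, 14 held a word in the coding sequence and 6 in the 3' UTR of another transcript, and 27 held none in any 3' UTR, the coding sequence or the 5' UTR. These 27 include PRKCA, HK2, SLCO4A1, CREG1, CCN1, CCN2, ANKRD1, SUN1 (a nuclear envelope protein), YWHAH (a 14-3-3 protein) and ATP6V0E1 (a subunit of the vacuolar proton pump).

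The members just inside it were HPS5, FNBP1L, SUSD5 and BCDIN3D, whose weakest log2 changes all round to -0.59, with values over the lines of -0.59, -0.69 and -1.01 for HPS5, -0.59, -0.73 and -0.83 for FNBP1L, -0.80, -0.59 and -1.13 for SUSD5 and -0.59, -1.14 and -0.65 for BCDIN3D. Just outside were TRIM8 (-0.64, -0.58 and -1.01), RUVBL1 (-0.58, -0.74 and -0.81), FAM168B (-0.58, -0.74 and -0.99) and KAT2B (-0.58, -0.85 and -1.12). In all, 433 genes outside the set, these 4 included, passed in 2 lines only, and 241 of them missed in H460. The upper bound of the read-split interval was below 0 in every line for 127 members, ANKRD1 and TMEM88 being the exceptions, and below the 1.5-fold line in every line for 74.

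The level of a member in a line was taken over its control and si-MALAT1 libraries, both of which the rule used, so the counts of level differences are not independent of it. With treatment as a block in edgeR's quasi-likelihood test, adjusted by Benjamini-Hochberg over 21771 genes, 88 of 129 members (68.2%) differed between H460 and H1299, where 59.8% of all 11882 genes did. Between H460 and A549 58 members (45.0%) differed against 42.0% of all genes, and between H1299 and A549 67 (51.9%) against 56.1%. The direction was less even: 72 members (55.8%) were higher in H460 than in H1299 against 30.5% of all genes, 47 (36.4%) were higher in H460 than in A549 against 21.2%, and 24 (18.6%) were higher in H1299 than in A549 against 27.7%. No test of these shares was made. A level includes the si-MALAT1 library, so the size of a member's reduction enters it, and how far this moves the shares was not tested. The test has 2 residual degrees of freedom, and without the treatment block the counts were 33, 20 and 21. Without the A549 control library they were 38 for H460 against A549 and 42 for H1299 against A549, and without the A549 si-MALAT1 library 36 for H460 against A549.

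The members with the widest range of control levels between the lines were APLN, TMEM88, ANO5, CREG1 and ANKRD1, and since that range chose them, their levels are given with no test. APLN was at 3034 scaled reads in the H460 control against 26.1 in H1299 and 55.3 in A549, and only its reads in H460 brought its mean past the count filter. TMEM88, an inhibitor of Wnt signalling, had 960 and 574 raw reads in the H1299 control and si-MALAT1 libraries against 8 and 3 in H460 and 8 and 5 in A549, and it met the filter only through H1299. Its log2 change in H460 and A549 rests on at most 8 reads in a library, with intervals of -3.88 to 0.73 and -2.78 to 0.97. ANO5, an anoctamin of intracellular membranes, was highest in A549, at 3562 scaled control reads against 141 in H460 and 40.4 in H1299, and it too met the filter only through that line. CREG1 was ordered H460, A549 and H1299 in both states, and the si-MALAT1 level of each line lay above the control of the next. ANKRD1 was lowest in H1299 in both states, and its order in H460 and A549 differed between them, with A549 above H460 in the controls and below it after siRNA.

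**Figure D5:**
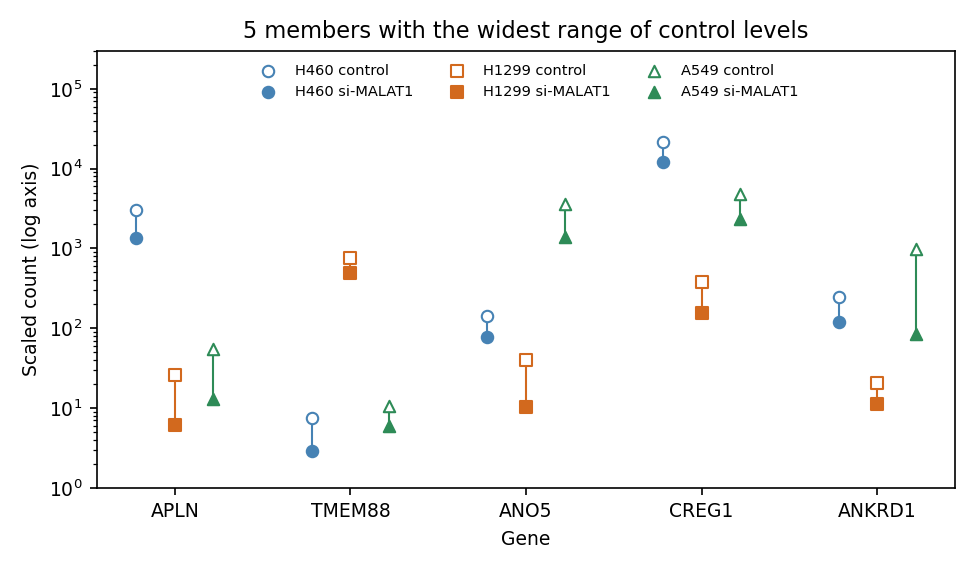
Scaled read counts (vertical axis, log scale) of the 5 members with the widest range of control levels between the lines, with open symbols for control and filled symbols for si-MALAT1 libraries. APLN and CREG1 are highest in H460, TMEM88 in H1299, and ANO5 and the ANKRD1 control in A549.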

How the data were processed

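RNA was sequenced from 6 libraries, 1 control and 1 si-MALAT1 library of each of H460, H1299 and A549, in a strand-marking dUTP preparation. The authors aligned reads to GRCh38 with HISAT2 2.1.0 and assembled and counted them with StringTie, whose version is 1.3.4b in the submitters' processing notes. The methods of the study give a different StringTie version, and which one made the table is not known. The processing notes also name hg19. The annotation deposited with the tables is NCBI RefSeq on GRCh38, and all 80893 coding transcripts read from hg38 with it ended in a stop codon. Whether counting used the strand is not stated. The deposited table holds read counts, FPKM and TPM per gene, as made by the authors. It also has 18 columns of samples not analysed here. Counts were used for all changes and tests, TPM for levels between genes, and FPKM and TPM as alternatives.

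Counts were divided by median-of-ratios size factors, and log2 changes used a pseudocount of 1. The 95% intervals on a log2 change come from the exact binomial split of the reads of a gene, and intervals cover counting error only. Levels between lines were tested with edgeR 4.0.16 (R 4.3.3; glmQLFTest, TMM, filterByExpr) with treatment as a block, at a Benjamini-Hochberg adjusted p of 0.05. The 2 libraries of a line are not replicate cultures, so these p-values measure only the spread left between 6 libraries. DESeq2 1.42.0, other scalings, filters, words and regions were tried as alternatives. Sequences were read with pysam 0.24.0, words were searched on the transcript strand and counted with overlaps, and sites sharing TGAATC count once.

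The members, words and lists were chosen with earlier results of these data known, and the role groups were written after the members were seen. Genes named are the 10 members with the largest reduction in the weakest line at a mean of at least 500 reads, the most abundant, those most variable between lines, those nearest the threshold, those with most sites, those with the widest range of control levels, the genes outside the set whose log2 levels, centred within each line, were most like the members' mean, and TRIM44 and MALAT1. Others were chosen after their values were seen, and a gene that the rule names is not reported here.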

Additional observations from a re-analysis of the deposited data

How the results depend on the processing

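The number of members depended on the scale and the threshold. It was 72 on log2(FPKM + 1), of which 70 were shared with the 129, and 104 on log2(TPM + 1), of which 83 were shared, where the median of all genes in H460 moved by -0.11. Asking for a log2 change of at most -0.7 or -1 gave 72 or 16 genes, and asking for only 2 of the lines gave 171 to 370. Other scalings, pseudocounts and count minimums gave 94 to 148, and a threshold of -0.5 gave 183. The cause of the lower FPKM count was not tested.

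The share of members with a word was 45.0% with ATGAATC alone, 27.1% with ATGAATCA, 76.0% with TGAATC, 19.4% with the reverse complement words, 48.1% in the shortest 3' UTR, 30.2% in the coding sequence, 2.33% in the 5' UTR and 81.2% in the members at least 2-fold lower in every line. Without 8 genes with near-identical copies or a shared locus, a choice made after seeing the data, it was 66.9%.

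Without the treatment block the members that differed in level were 33 (H460 and H1299), 20 (H460 and A549) and 21 (H1299 and A549). Leaving out 1 library at a time gave 70 to 82, 36 to 63 and 42 to 72, and DESeq2 gave 93, 65 and 70. The log2 level difference of ANKRD1 (H460 minus A549), -0.95 in full, ran from -2.02 without the A549 si-MALAT1 library to 0.51 without the A549 control library. The 3 lines form 3 pairs of libraries, and no paired test of si-MALAT1 against control was made because those values chose the members. With 1 library per group, the spread between cultures limits every value here.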

Other observations

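The 103 genes that were at least 1.5-fold higher in every line after siRNA showed the opposite pattern of words. A word stood in the 3' UTR of 7 of them (6.80%, 95% Wilson interval 3.33% to 13.4%), against 17.5% of all genes, although their median 3' UTR of 2250 bases was longer than that of all genes. The reverse complement words were in 34 (33.0%, interval 24.7% to 42.6%), against 18.1% of all genes. These genes too were chosen by the values of the same libraries, and the cause was not tested.

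Outside the set, the genes whose log2 levels, centred within each line, were most like the members' mean included PANK3, a pantothenate kinase of coenzyme A synthesis with 3 sites, whose log2 changes were -0.51, -0.60 and -0.71. ASB1, an ankyrin repeat protein with a SOCS box and 2 sites, had log2 changes of -0.43, -0.49 and -0.57. RBFOX2, a splicing factor, and SINHCAF, of the SIN3-HDAC complex, had no site, and their log2 changes were -0.13, -0.15 and -0.19 and -0.41, -0.46 and -0.58. Likeness was measured by Pearson's r over the 6 centred values, so it compares the changes within lines, which chose the members, and not levels or the size of the change. It is a description.

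Of the other zinc carriers, SLC39A9 held 1 site and had log2 changes of -0.54, -0.97 and -1.18, so that only its value in H460 kept it outside the set. NRAS, with no site, had log2 changes of 0.68, 0.86 and 0.61.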
